A study of Mus musculus with 2 samples.

Results

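The 4 mouse Hox clusters hold, besides their Hox genes, a small set of miRNA genes. Among them are Mir10a and Mir196a-1 in HoxB, Mir10b in HoxD, Mir196a-2 and Mir615 in HoxC, and Mir196b in HoxA. These 6 genes were taken by name from the 1973 miRNA gene rows of the count tables, and all 6 had a row. They were measured by microRNA sequencing of whole liver from healthy embryos of the B6NCrl strain at embryonic day 16.5. Both libraries belong to 1 group. Replicate 2 is a pool of livers from 41 embryos, replicate 1 is a pool of a size that the labels do not give, and both pools mix males and females. No treatment, mutation or second tissue was part of the design, so the questions here are how abundant each Hox cluster miRNA was, how the members relate to each other, and how far the pools differed.

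Hox genes encode transcription factors that set position along the body axis, and their order in a cluster follows the order of the body regions in which they act. The miRNAs of the clusters are transcribed from the same strand as the Hox genes around them and are known to repress Hox messenger RNAs; in mouse, miR-196a directs the cleavage of Hoxb8 messenger RNA. Outside of patterning, miR-10 miRNAs are known from endothelial and other stromal cells and from blood progenitors, and in mouse miR-196b is known from hematopoietic stem and progenitor cells. The fetal liver at this stage holds all of these cell classes beside hepatocytes.

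Each hairpin can give a mature miRNA from its 5′ arm and another from its 3′ arm. The mature sequences are shown because they define the families and the limits of the counts. They are from RefSeq (GRCm38.p6), which held mature sequences for all 6 genes, and capitals mark the seed, bases 2 to 8, with which a miRNA recognises its targets.
miR-10a-5p: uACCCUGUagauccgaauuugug
miR-10b-5p: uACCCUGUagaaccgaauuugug
miR-196a-5p: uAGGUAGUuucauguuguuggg
miR-196b-5p: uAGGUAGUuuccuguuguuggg
miR-615-3p: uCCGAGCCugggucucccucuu
miR-615-5p: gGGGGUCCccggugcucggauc

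The 5′ arms of the miR-10 and miR-196 genes fall into 2 seed families, and miR-615-5p has a seed found in no other mature miRNA of the table. ACCCUGU was the seed of 2 of the 1679 mature mouse miRNAs in that table, miR-10a-5p and miR-10b-5p, and AGGUAGU was the seed of miR-196a-5p and miR-196b-5p alone. Within each family the 5′ arms differed by 1 base, at position 12 counted from the 5′ end in both families: U12A from miR-10a-5p to miR-10b-5p, over 23 bases, and A12C from miR-196a-5p to miR-196b-5p, over 22 bases. Reads of the 5′ arms are told apart within a family by that base. The 3′ arms of Mir10a and Mir10b differed at 3 of 22 positions (A3G, U9A and A10U).

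The genes Mir196a-1 and Mir196a-2 carry the same 5′ arm. Their hairpins are shown with the mature arms in capitals.
Mir196a-1: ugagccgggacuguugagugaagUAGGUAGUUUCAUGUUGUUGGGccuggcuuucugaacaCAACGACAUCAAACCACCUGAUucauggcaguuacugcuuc
Mir196a-2: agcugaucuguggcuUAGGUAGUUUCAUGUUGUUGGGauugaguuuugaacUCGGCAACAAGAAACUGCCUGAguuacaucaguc
The longest run they share is 22 bases, the 5′ arm itself, while their 3′ arms each occur in 1 gene. All 5 words of 18 bases in miR-196a-5p occurred in both genes, and no such word of Mir10a, Mir10b, Mir196b or Mir615 occurred in another listed gene. The files hold a tally of multimapping reads apart from the gene counts, 28.2% of reads in replicate 2 and 28.1% in replicate 1, and that tally is not split by miRNA. How such reads of miR-196a-5p were counted was not tested, and counts of Mir196a-1 and Mir196a-2 may be too low.

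In the mm10 assembly, Mir10a (ENSMUSG00000065519.1) lies on the plus strand at chr11:96317165-96317274, 0.992 kb before the start of Hoxb4 and 11.0 kb after the end of Hoxb5, and overlaps no other annotated gene. Mir196a-1 (ENSMUSG00000065546.1) lies in the same cluster at chr11:96265164-96265265, plus strand, 6.19 kb before Hoxb9, and also overlaps no other gene. Mir10b (ENSMUSG00000065500.2) lies at chr2:74726070-74726137, plus strand, in introns of Hoxd3 and Hoxd4. Thus both miR-10 genes sit beside a group 4 Hox gene and all miR-196 genes sit near a group 9 gene. Mir196b (ENSMUSG00000065443.1) overlaps an exon of Hoxa9 at chr6:52230081-52230165 on the minus strand. Mir196a-2 (ENSMUSG00000065488.1) lies at chr15:102973350-102973434, plus strand, 3.00 kb before Hoxc9 and within an intron of the long annotated form of Hoxc5. Mir615 (ENSMUSG00000076010.1) lies at chr15:103014910-103015001, plus strand, also in an intron of Hoxc5, the gene for a transcription factor of the anterior trunk. Of the 1973 rows, 1894 matched the annotation, and no other miRNA gene among these lay within the bounds of a Hox cluster. Rows without a match could not be placed. Gm44463, a further annotated miRNA gene of HoxD, had no row.

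**Figure D1:**
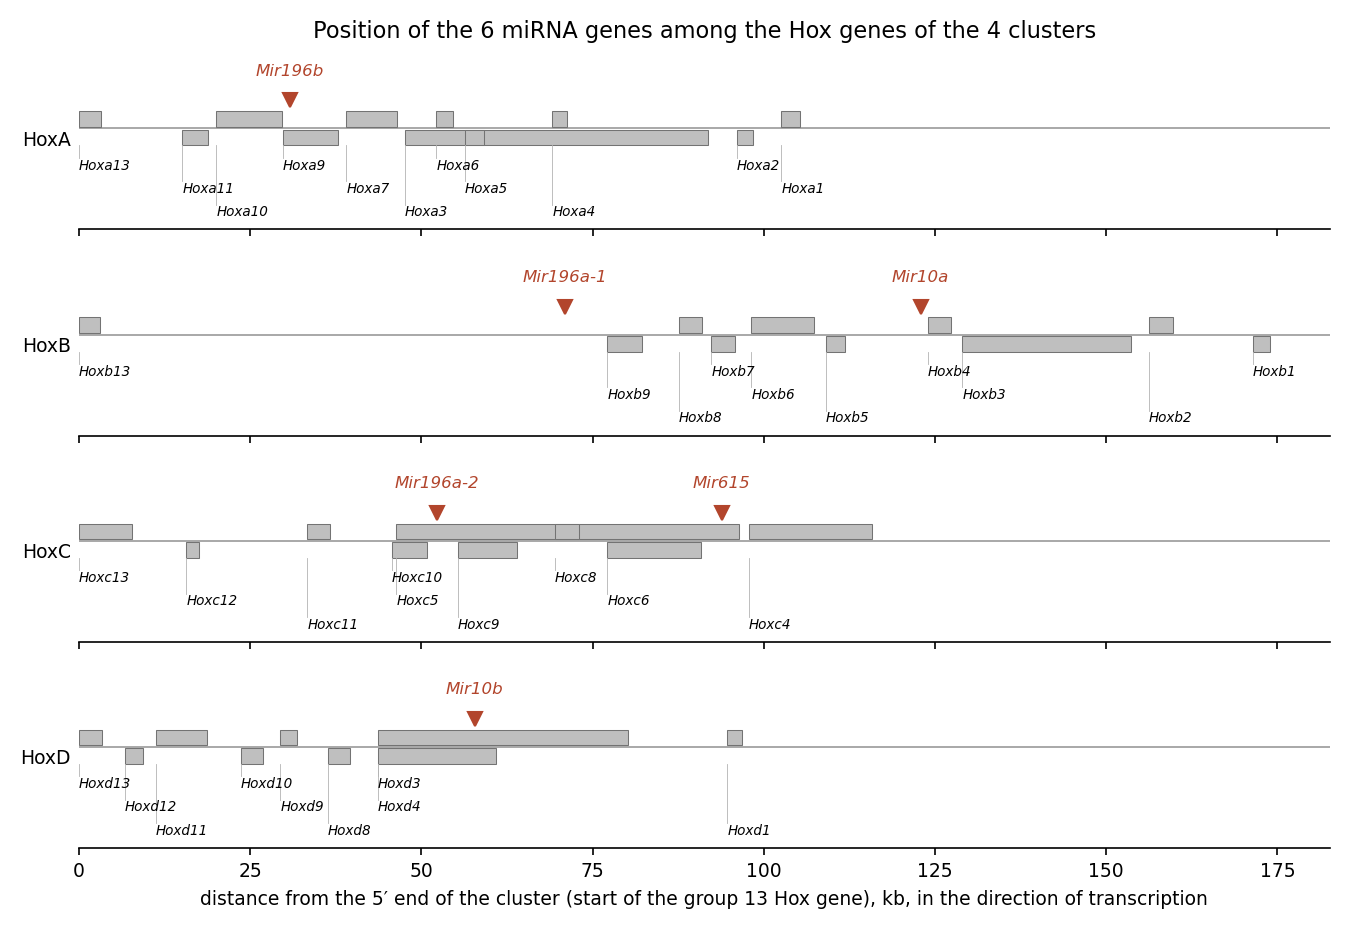
Position of the 6 miRNA genes (triangles) and the Hox genes (grey boxes, drawn above or below the line only to keep them apart) in the 4 clusters, as distance in kb from the start of the group 13 gene. Mir10a and Mir10b lie beside group 4 genes and the miR-196 genes near group 9 genes.

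Total sense-strand counts were 5102289 in replicate 2 and 5930074 in replicate 1, so 1 count was worth 0.196 CPM and 0.169 CPM (the usual scaling of sense-strand counts to a common library total). A read covers a whole mature miRNA, so counts were not scaled by length. The liver label was borne out by the hepatocyte miRNA Mir122, at 214555 CPM in replicate 2 and 213274 CPM in replicate 1, and the endothelial Mir126a and erythroid Mir451a were present at 48546 and 17488 CPM in replicate 2 and 45470 and 16467 CPM in replicate 1.

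Hox cluster miRNAs were a small part of the fetal liver profile, and Mir10a made up most of it. Together the 6 genes held 0.474% of sense-strand counts in replicate 2 (0.468% to 0.480%, the 95% interval after Clopper and Pearson), against 0.492% (0.487% to 0.498%) for replicate 1, with a mean of 0.483% ± 0.0130 (SD, n = 2). Mir10a alone gave 84.7% of the members' counts in replicate 2 (interval 84.3% to 85.2%) and 83.8% in replicate 1 (83.3% to 84.2%). Mir10b gave 8.37% and 7.84%, Mir196b 6.24% and 7.41%, Mir615 0.567% and 0.870%, and the miR-196a genes the small remainder. In bulk tissue, fewer cells of a type and less RNA per cell cannot be told apart, so these levels do not say which cells the reads came from.

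Mir10a, the HoxB copy of miR-10, had 20483 counts (4014 CPM) in replicate 2 and 24454 counts (4124 CPM) in replicate 1, a mean of 4069 ± 77.3 CPM (SD, n = 2). It ranked 45th of the 708 genes with any count. Mir122 exceeded it 53.4-fold in replicate 2 and 51.7-fold in replicate 1. The genes next to it in mean level were Mir30d (3798 CPM in replicate 2 and 4355 CPM in replicate 1) and Mir337 (3680 CPM and 4456 CPM), whose values spanned those of Mir10a. Its place among these neighbours is thus not fixed by 2 libraries.

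Mir10b, the HoxD copy, had 2023 counts (396 CPM) in replicate 2 and 2289 counts (386 CPM) in replicate 1, with a mean of 391 ± 7.42 CPM. It ranked 122nd, below Mir503 (460 CPM in replicate 2 and 401 CPM in replicate 1) in both libraries and with values overlapping those of Mir496a (383 CPM and 396 CPM). The count of Mir10a was 10.1 times as high in replicate 2 (95% interval 9.67 to 10.6) and 10.7 times in replicate 1 (10.2 to 11.2), although both give the same seed. The share of Mir10a in the pair was 91.0% in replicate 2 and 91.4% in replicate 1, which was not a difference past 0.05 (two-sided Fisher's exact test on the reads of these 2 libraries, p = 0.0961). A ratio within a library does not depend on how the libraries were scaled.

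Mir196b, the HoxA gene of the miR-196 family, had 1508 counts (296 CPM) in replicate 2 and 2162 counts (365 CPM) in replicate 1, a mean of 330 ± 48.8 CPM at rank 128. Its values lay below those of Mir10b in both libraries, by a margin that was smaller in replicate 1: the ratio of Mir10b to Mir196b was 1.34 in replicate 2 (interval 1.25 to 1.43) and 1.06 in replicate 1 (0.998 to 1.12). In replicate 1 alone the interval of the ratio includes equal counts. Mir421 and Mir501, its neighbours in mean level, had values within the range of Mir196b (341 and 299 CPM in replicate 2, 341 and 346 CPM in replicate 1).

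Mir615, the miRNA in the Hoxc5 intron, had 137 counts (26.9 CPM) in replicate 2 and 254 counts (42.8 CPM) in replicate 1, a mean of 34.8 ± 11.3 CPM at rank 225. Mir196b exceeded it 11.0-fold and 8.51-fold in replicates 2 and 1. Its neighbours in mean level, Mirlet7c-2 (41.7 CPM in replicate 2 and 28.0 CPM in replicate 1) and Mir194-1 (50.8 CPM and 14.0 CPM), had values that overlapped its own and were higher in replicate 2, unlike Mir615. Mir196a-2 followed with 28 counts (5.49 CPM, exact Poisson interval 3.65 to 7.93) in replicate 2 and 35 counts (5.90 CPM, 4.11 to 8.21) in replicate 1, among values of Mir672 (5.49 CPM and 6.58 CPM) and Mir190b (5.10 CPM and 5.73 CPM) that overlapped its own. Mir196a-1 had 1 count in each library, or 0.196 CPM (0.00496 to 1.09) in replicate 2 and 0.169 CPM (0.00427 to 0.940) in replicate 1, a level that 12 rows shared, Mir142b and Mir704 among them. These intervals reach the level that a count of 0 allows, 0.588 CPM in replicate 2 and 0.506 CPM in replicate 1 for 3 counts. Mir196a-1 was thus barely detectable in the gene counts, from which reads of its shared 5′ arm may be missing. Mir142b, by contrast, had 186235 counts on the other strand in replicate 2 and 186850 in replicate 1. Its sense-strand count is thus no measure of what that locus gives. The count of Mir196a-2 was 28.0 times that of Mir196a-1 in replicate 2 (interval 4.63 to 1145) and 35.0 times in replicate 1 (5.88 to 1421). Which arm these counts came from is not known. The order Mir10a, Mir10b, Mir196b, Mir615, Mir196a-2, Mir196a-1 was the same in both libraries, and each gene's values were apart from those of the next. The places of the miR-196a genes in it are uncertain for the reason of shared sequence given above.

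**Figure D2:**
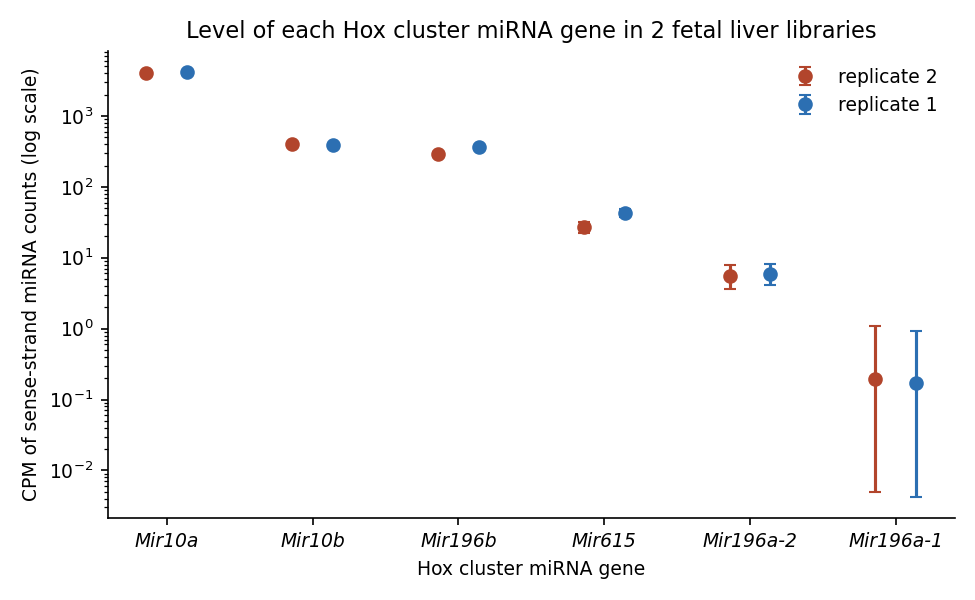
CPM of each Hox cluster miRNA gene (log scale) in replicate 2 (left point) and replicate 1 (right point), with exact Poisson 95% intervals, most of which are smaller than the points. Mir10a stands at 4014 and 4124 CPM, about 10 times Mir10b, and Mir196a-1 at 1 count in each library.

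No member had a count on the other strand in either library. By cluster, HoxB held 4015 CPM in replicate 2 and 4124 CPM in replicate 1, nearly all of it Mir10a. HoxD held 396 and 386 CPM, HoxA 296 and 365 CPM, and HoxC, with 2 miRNA genes, 32.3 and 48.7 CPM. By seed family, the count of miR-10 was 14.6 times that of miR-196 in replicate 2 and 12.2 times in replicate 1. That ratio would be too high if miR-196a reads were missing from the gene counts, which was not tested.

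Families of related sequence were, in sum, more abundant than the Hox cluster families. miR-99 and miR-100 share a stretch with miR-10 downstream of the seed start, shown here in capitals beside miR-10a-5p; Mir100 is on chromosome 9.
miR-10a-5p: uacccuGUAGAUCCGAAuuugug
miR-100-5p: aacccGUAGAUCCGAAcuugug
The shared run is 11 bases for miR-100-5p and 10 bases for miR-99a-5p, but it starts 1 base later in miR-10a-5p, so the seeds differ. The miR-10 genes summed to 4411 CPM in replicate 2 and 4510 CPM in replicate 1, against 20271 CPM and 22690 CPM for the 6 genes of miR-99, miR-100 and miR-125, which were 4.60-fold and 5.03-fold higher. That list was led by Mir99a (13284 CPM in replicate 2 and 13997 CPM in replicate 1) and Mir99b (4836 CPM and 6492 CPM), miRNAs known from blood stem and progenitor cells. Mir10a lay below both but 4.07-fold above Mir100 in replicate 2 and 4.22-fold in replicate 1. Mir100 in turn had 2.49 and 2.53 times the counts of Mir10b.

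The seed of miR-196 also occurs in let-7, a family that accumulates as tissues differentiate, but 1 base further from the 5′ end. The run AGGUAGU lay at bases 3 to 9 of 8 of the 9 mature let-7 miRNAs of the list, all but let-7e-5p.
miR-196b-5p: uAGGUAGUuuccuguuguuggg
let-7g-5p: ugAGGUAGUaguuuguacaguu
The miR-196 genes summed to 301 CPM in replicate 2 and 371 CPM in replicate 1, against 103127 CPM and 97659 CPM for the 10 of 12 let-7 genes that had a row, led by Mirlet7g and Mirlet7i. Mir196b stood between Mirlet7b (973 and 975 CPM) and Mirlet7a-1 (197 and 195 CPM), a let-7 gene whose mature sequence also has several genomic copies. Reads shared by such copies may be missing from the let-7 sum. The same may hold for the miR-125b genes in the sum of miR-99, miR-100 and miR-125. Neither was tested.

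**Figure D3:**
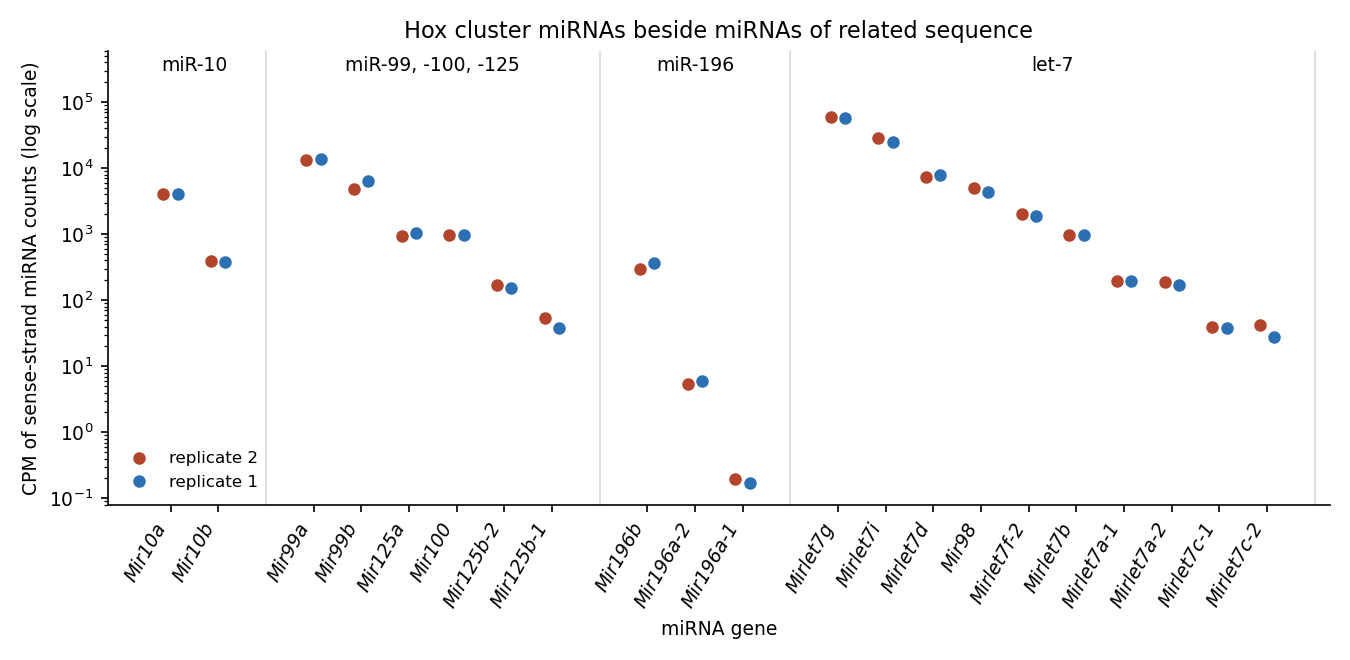
CPM (log scale) of the miR-10 and miR-196 genes beside miRNAs with related sequence, in replicate 2 (left point) and replicate 1 (right point). Mir99a and Mir99b stand above Mir10a, and Mir196b lies within the range of the let-7 genes.

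The libraries differed in Mir615 and Mir196b beyond counting error, and in the miR-10 genes by little. Mir615 was lower in replicate 2 than in replicate 1 by a log2 ratio of -0.67 (counting SE 0.15, 1.59-fold; exact binomial test with Benjamini-Hochberg adjustment, adjusted p = 2.47e-05). Mir196b was lower by a log2 ratio of -0.30 (counting SE 0.05, 1.23-fold; adjusted p = 1.44e-09). For both genes the direction held with TMM scaling, DESeq2 size factors and totals without Mir122. A change of the count minimum leaves a log2 ratio as it is. The settings of strand and added count could move these ratios only a little. Mir10a had a log2 ratio of -0.039 (counting SE 0.014, adjusted p = 0.0118), which passed the test, but the ratio turned to 0.038 with TMM scaling and 0.035 with DESeq2 size factors, so its direction depended on the scaling. Mir10b had a log2 ratio of 0.039 (counting SE 0.044, adjusted p = 0.543), and passed the test at 0.12 with TMM scaling (adjusted p = 0.0224) and 0.11 with DESeq2 size factors (adjusted p = 0.0266). Mir196a-2 had one of -0.10 (counting SE 0.36, adjusted p = 0.902). Mir196a-1, with 2 counts in all, was not tested. The test compares these 2 libraries and covers counting error only.

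Of the 5 members tested, 3 passed the test by the library totals, all lower in replicate 2. With TMM scaling or DESeq2 size factors 4 passed, Mir10a and Mir10b higher and Mir196b and Mir615 lower. Over all 440 genes tested the same test called 44.5%, with 27.0% lower and 17.5% higher in replicate 2, and among the 280 genes averaging at least 10 CPM it called 63.2%. With either of the other scalings it called 44.1% of the 440 genes, with 22.3% lower and 21.8% higher. A call was thus common in these libraries and is no mark of the Hox cluster miRNAs. The members' median log2 ratio was -0.10, against -0.08 over all genes tested. By size, the ratio of Mir615 was larger than that of 93.9% of the 280 genes, that of Mir196b larger than 66.1%, and those of Mir10a and Mir10b larger than 11.4% and 11.1%. The spread between the libraries over all tested genes corresponded to a biological coefficient of variation of 22.9% (edgeR, common estimate), or an SD of 0.47 on the scale of the log2 ratio. That SD leaves out counting error and rests on TMM scaling, while the ratios set against it rest on library totals. Mir615 lay outside that SD, also at its -0.59 with TMM scaling, and the other 4 tested members inside it. The median size of the log2 ratio over all tested genes was smaller than that SD, at 0.27.

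**Figure D4:**
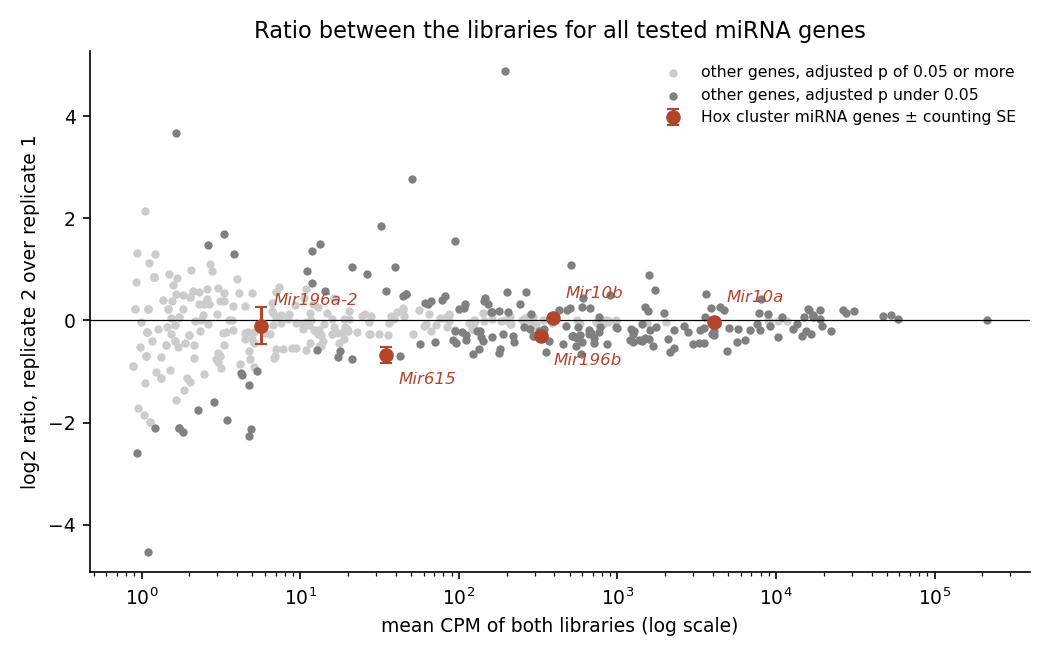
Log2 ratio of replicate 2 over replicate 1 against mean CPM (log scale) for the 440 genes tested, with the 5 tested Hox cluster miRNAs and their counting SE in red. Mir10a and Mir10b lie close to 0, and Mir615, at -0.67, is the lowest of the 5.

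Markers of other cell classes of the liver and of other tissues moved between the same libraries, mostly in the other direction from Mir615 and Mir196b. Replicate 2 was higher past the test in all 5 epithelial and biliary genes, with a summed level of 6376 CPM in replicate 2 and 4266 CPM in replicate 1, and Mir141 had the largest ratio (142 CPM and 48.2 CPM). The gut and pancreas list summed to 2532 CPM in replicate 2 and 1422 CPM in replicate 1; 3 of its 6 genes were higher and 1 lower past the test, and Mir215, an intestinal miRNA, stood at 376 CPM and 12.6 CPM. In the skeletal muscle list, where 3 of 4 genes had a row, Mir206 was higher (2050 CPM in replicate 2 and 1104 CPM in replicate 1). Mir133b was at 12.2 CPM and 14.8 CPM, and Mir1a-1 had 1 count in replicate 2 and none in replicate 1. Reads that Mir1a-1 shares with another genomic copy may be missing from its count, which was not tested. The mesenchymal list summed to 18247 CPM in replicate 2 and 16177 CPM in replicate 1, with 3 of its 5 tested genes higher and 1 lower past the test. Most of that sum was Mir143 (17326 CPM in replicate 2 and 15059 CPM in replicate 1), and the lower gene was Mir214 (602 CPM and 816 CPM). The endothelial Mir126a was 1.07-fold higher in replicate 2, past the test. None of these lists fell with Mir615 and Mir196b in its sum, and their part in the difference was not tested.

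Of the blood-cell lists, the stem and progenitor list and the erythroid list showed both directions past the test. The stem and progenitor list summed to 38163 CPM in replicate 2 and 39201 CPM in replicate 1, with 3 of 8 genes higher and 3 lower past the test, or 4 higher and 1 lower with TMM scaling or DESeq2 size factors; it holds all 6 genes of miR-99, miR-100 and miR-125. By the library totals, the 3 lower genes were Mir99b, Mir125a and Mir99a, at log2 ratios of -0.42, -0.14 and -0.08. The 3 higher genes were Mir125b-1, Mir125b-2 and Mir130a, at 0.51, 0.16 and 0.12. The erythroid list summed to 27152 CPM in replicate 2 and 24071 CPM in replicate 1, with Mir451a and Mir144 higher and Mir486 lower past the test, at log2 ratios of 0.09, 0.42 and -0.66. The leukocyte and hepatocyte lists had median log2 ratios of 0.07 and 0.09. By the library totals, 1 of 5 leukocyte genes and 3 of 4 hepatocyte genes were higher past the test, and none was lower.

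**Figure D5:**
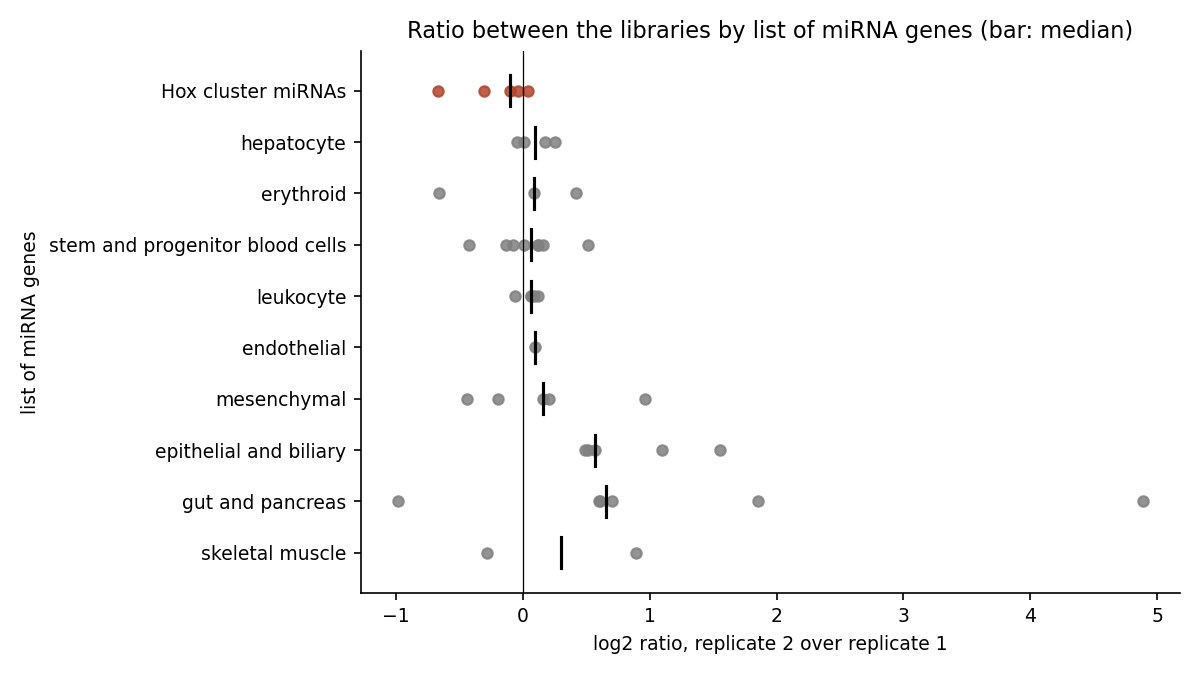
Log2 ratio of replicate 2 over replicate 1 for the tested genes of each list (points) with the list's median (bar). The Hox cluster miRNAs, in red, run from -0.67 to 0.04, and the epithelial and biliary genes all lie above 0.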

How the data were processed

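MicroRNA sequencing libraries were made from total RNA of whole liver at embryonic day 16.5, with RNA sizes below 30 per the labels. The deposited values are raw counts per miRNA gene, in 3 columns without a header. The first column equals the sum of the other 2, which split the counts by strand; the second, which holds most counts, was taken as the sense strand. The deposited description names assembly mm10 and GENCODE annotation M4; for the aligner, the counting program and molecular identifiers the status is: not given in the sources used here. Counts may therefore hold PCR copies, and intervals cover counting error only. Arms of a hairpin are not separated.

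CPM were computed over the sense-strand counts of all 1973 gene rows, leaving out the 4 tally rows. Names, coordinates and overlaps came from GENCODE M21 on the same assembly (1894 rows matched), and printed sequences from RefSeq (GRCm38.p6). Sharing of sequence was counted in words of 18 bases on both strands. A two-sided exact conditional binomial test compared the 2 libraries wherever a gene had at least 10 counts in total, with Benjamini-Hochberg adjustment over all genes tested and a threshold of 0.05; 0.5 was added to each count in log2 ratios. The test compares these libraries, not conditions, and was tested on simulated data. The simulated counts held counting error and set changes but no other variation between libraries, unlike the real counts. With 1 group, no contrast exists, so the edgeR quasi-likelihood test was not fitted; edgeR 4.0.16 gave TMM factors and a common biological coefficient of variation, and DESeq2 1.42.0 gave size factors. Shares have 95% Clopper-Pearson intervals and CPM have exact Poisson intervals. Alternatives were other totals and scalings, counts irrespective of strand, other count minimums and added counts, and each library alone.

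The members and gene lists were chosen with earlier results of these data known. Genes named are the members, the gene next above and below each in mean CPM, and Mir122 for scale. Also named are some of the 2 highest genes of the lists, and list genes that a sentence on the members rests on (Mir100, Mirlet7b, Mirlet7a-1 and Mir1a-1). Neither of the 2 highest genes is named for the leukocyte list or for the epithelial and biliary list. Mir215 and Mir141, for the largest ratio of their lists, and Mir486, the third erythroid gene, were named after their values were seen. The same holds for Mir125a, Mir125b-1 and Mir125b-2, as genes of the stem and progenitor list past the test. Gm44463 was named for its place in HoxD.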

Additional observations from a re-analysis of the deposited data

How the results depend on the processing

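The members' order did not change under any scaling, since each total scales all members alike within a library. With counts irrespective of strand, the summed share was 0.444%, Mir10a was at 3737 CPM, Mir10b at 359 CPM and Mir196a-2 at 5.23 CPM. Over all tallied reads the share was 0.203% and the levels were 1706 CPM for Mir10a, 164 CPM for Mir10b, 138 CPM for Mir196b, 14.6 CPM for Mir615, 2.39 CPM for Mir196a-2 and 0.0764 CPM for Mir196a-1. Without Mir122 in the total the share was 0.615%, with Mir10a at 5176 CPM, Mir10b at 498 CPM, Mir196b at 420 CPM, Mir196a-2 at 7.24 CPM and Mir196a-1 at 0.232 CPM. The log2 ratio of Mir10a reversed to 0.038 with TMM and 0.035 with DESeq2 size factors. That of Mir10b passed the threshold at 0.12 and 0.11 under the same scalings (exact binomial adjusted p = 0.0224 and 0.0266). Both scalings move the median of all tested genes to near 0 (-0.0023 and -0.0051). The ratio of Mir615 ranged from -0.67 to -0.59 and that of Mir196b from -0.30 to -0.23, past the threshold in each alternative. The number of genes called ranged from 183 to 206. Calls made up 27.5% of the 708 genes tested at a minimum of 1 count and 57.5% of the 318 at a minimum of 50. Single libraries put Mir10a over Mir10b at 10.1 and 10.7. Leaving out a library leaves no ratio between libraries, so that was not run. No paired analysis was possible because there is 1 group.

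Depth limits Mir196a-1, with 1 count a library. PCR copies could not be told from molecules, arms were not separated, and a sequence bias common to the libraries would not show in these errors.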
